A study of Mus musculus with 19 samples.

Results

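The maternal and the paternal allele were compared within each of 4 control libraries of extra-embryonic ectoderm (ExE), the trophoblast layer that lies above the epiblast of the mouse egg cylinder and contributes to the placenta. Members were the autosomal genes whose maternal plus paternal allelic RPKM (reads per kilobase, scaled to library size and counted over bases that tell the parental genomes apart) reached 2 in every control library. Of 22153 autosomal genes in the allelic table, which lists 23243 genes in all, 7784 met this rule, and between 8309 and 8469 met it in any single library. The 19 samples of the series comprise ExE and morula RNA libraries and morula CUT & RUN libraries. All embryos came from the cross labelled B6/129 x PWK. The 9 matKO ExE libraries (4 female, 5 male) had mothers carrying Gdf9-Cre and Eed-fl/fl, and the 4 control ExE libraries (female 1, female 2, male 1 and male 2) had Eed-fl/fl mothers without Cre, all at E6.5 and all with wild-type (WT) fathers. Gdf9-Cre acts in growing oocytes, so Eed, a core subunit of Polycomb repressive complex 2, is removed in the egg, and the mothers of both groups carry floxed Eed. Only this direction of the cross was analysed here, so a gene's parent of origin and the strain of the allele cannot be told apart from the ratio alone. The labels do not say that replicates came from separate embryos or litters, so p-values measure the spread between these libraries.

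Genomic imprinting is the expression of a gene from the allele of 1 parent, set by marks that the egg or the sperm lays down. At most imprinted domains the mark is DNA methylation of a control region, which acts through noncoding RNAs and insulators and is bound by the zinc finger protein ZFP57. A smaller group, used mainly in extra-embryonic tissue, is silenced on the maternal allele through H3K27me3 that the oocyte deposits, the mark written by the complex that holds Eed. Sequence differences between the parental strains give a separate kind of allelic difference, and reads that map better to the reference strain's letters or to a processed pseudogene can imitate one.

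The libraries carried their labels' tissue and sex. All 13 of the 13 ExE markers present in the table (Cdx2, Eomes, Elf5, Esrrb and others) had a mean total of at least 1 RPKM, with a summed level of 564 to 709 RPKM per library. Ectoplacental cone and giant cell markers summed to 765 to 1104 RPKM, with Prl3d1, Prl2c2, Tpbpa and Ctsq listed at 0. Markers of decidua summed to 2.82 to 3.78 RPKM and those of maternal blood to 5.18 to 7.15 RPKM, with Dcn, Prl8a2, Hoxa11, Hand2, Hbb-b1, Hbb-b2 and Ptprc listed at 0 in every library. The paternal share of X-linked RPKM was 7.79% and 8.44% in the females and 0.244% and 0.270% in the males. In bulk tissue, fewer cells of a type and less RNA per cell cannot be told apart.

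Most genes were expressed from both alleles at similar levels. The median maternal share of allelic RPKM over the 7784 genes lay between 49.8% and 50.1% in the 4 libraries, and 66.7% to 68.2% of genes lay between 40% and 60%. Each gene's log2 ratio of maternal to paternal RPKM, with 1 RPKM added to each, was tested against 0 with limma over the 4 libraries, with Benjamini-Hochberg adjustment over all 7784 genes and an adjusted p threshold of 0.05. The maternal allele was higher at 1599 genes (20.5%) and the paternal allele at 1559 genes (20%), 3158 genes in all (40.6%). Read counts tested with edgeR and 1 library size for both alleles gave 2019 maternal and 1290 paternal calls. Their median log2 ratio was 0.063, against -0.0083 with RPKM. Median RPKM ratios lay 0.06 to 0.08 below those of the counts, in the direction that scaling each allele to its own total gives. The even balance in RPKM therefore depends on scaling. Maternal reads made up 51.8% to 52.1% of the column totals, which cover all chromosomes and not only autosomes. With TMM scaling per allele the split was 1642 to 1626. The called differences were mostly small: their median absolute log2 ratio was 0.62, and 1366 of the 3158 had a mean maternal share between 40% and 60%. A stricter class of strong bias, called genes with a maternal share of at least 75% (or at most 25%) in each of the 4 libraries, held 152 genes toward the maternal allele (1.95%) and 183 toward the paternal allele (2.35%).

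More highly expressed genes were called more often. Of 4 equal groups of genes by mean allelic RPKM, the lowest began at 2.13 RPKM, and in it 25.1% were called and the median SD of the maternal share over the libraries was 8.48 percentage points. In the highest group, beginning at 109 RPKM, 61.2% were called and the median SD was 1.71 points. Strong bias was nearly as frequent at the bottom as at the top, with 4.68% of genes in the lowest group, 3.60% and 3.80% in the middle groups and 5.14% in the highest. The shares on either side of the thresholds were close: the nearest called genes had lowest maternal shares of 75.1% inside and 74.9% outside the class, and the nearest paternal genes had highest maternal shares of 24.97% inside and 25.001% outside.

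**Figure D1:**
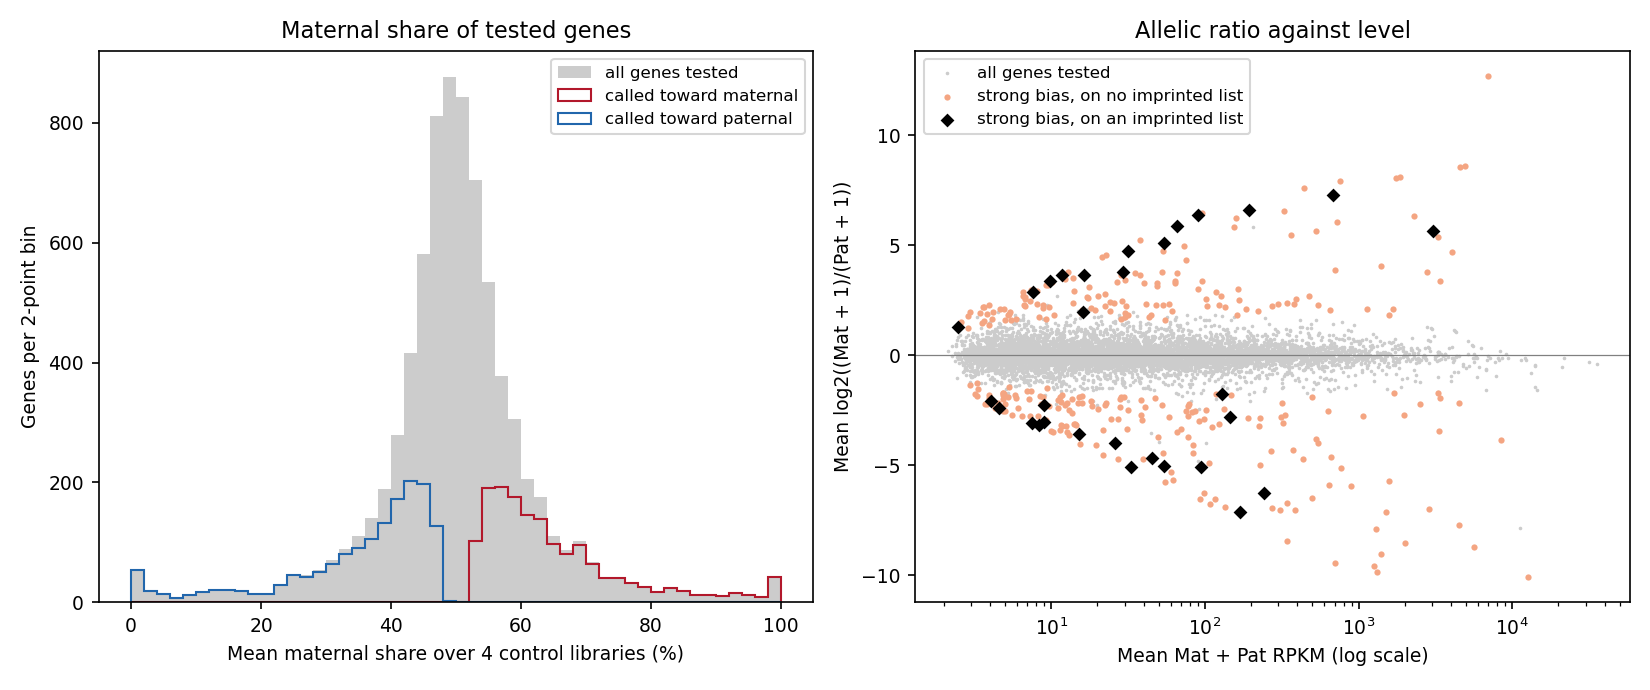
Left, histogram of the mean maternal share (%) of Mat + Pat RPKM over the 4 control ExE libraries for 7784 autosomal genes in bins of 2 points; right, log2 ratio of maternal to paternal RPKM (1 added to each) against mean Mat + Pat RPKM on a log axis, with strong genes coloured. Most genes gather at 50%, and the 152 strong maternal and 183 strong paternal genes lie at every level of expression.

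Known imprinted genes made up a small part of the strong class. Of 61 genes of the imprinted lists that could be tested, 20 were called maternal, 26 paternal and 15 in neither direction. Of the called members 30 were strong, namely 14 maternal and 16 paternal, which leaves 305 strong genes on no imprinted list. At domains controlled by DNA methylation, genes known to be expressed from the maternal allele had 26 tested members, of which 19 were called maternal, 2 paternal and 5 in neither direction, with a median maternal share of 78.0% beside 49.8% over all genes tested. Genes known to be expressed from the paternal allele had 20 tested members, of which 15 were called paternal, none maternal and 5 in neither direction, with a median maternal share of 3.75%. Per-library values below follow the order female 1, female 2, male 1, male 2, and positions are those of the counted interval in mm9.

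The Igf2-H19 and Kcnq1 domains on chromosome 7 held known growth regulators with large allelic differences. H19 (chr7:149761437-149764051), a noncoding RNA whose expression opposes that of Igf2, had 844, 616, 723 and 521 RPKM from the maternal allele and 2.34, 15.6, 0.821 and 2.43 RPKM from the paternal allele. Its log2 ratio was 7.27 (SE 0.49; limma adjusted p = 3.55e-05) and 7.96 without female 2, and the alleles did not overlap in any library. Igf2, the fetal and placental growth factor, had 38.0, 23.2, 33.6 and 22.4 RPKM from the maternal allele and 122, 85.9, 102 and 88.2 RPKM from the paternal allele (log2 ratio -1.75, SE 0.08; limma adjusted p = 4.32e-06). Its maternal share averaged 22.5% ± 2.09 (SD, n = 4), close under the limit of the strong class. Igf2as, transcribed antisense to Igf2, was called paternal with maternal shares of 31.5%, 18.1%, 9.78% and 5.62%, and the library kit does not mark strand, so reads where genes overlap cannot be told apart.

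All 8 tested maternal members of the Kcnq1 domain were called maternal, and 7 of them were strong. Cdkn1c, which codes for the cyclin-dependent kinase inhibitor p57, had 98.8, 95, 86.9 and 81.4 RPKM from the maternal allele and 0.415, 0, 0 and 0 RPKM from the paternal allele, and 1598 reads against 2. Phlda2, which restrains placental growth, had 2957, 3237, 3164 and 2489 RPKM from the maternal allele and 164, 153, 17.6 and 24.9 RPKM from the paternal allele, from 1 variant (log2 ratio 5.64, SE 0.53; limma adjusted p = 1.92e-04; 5.05 without male 1). Both females had more paternal Phlda2 RPKM than both males, and its female minus male difference did not pass the test. Ascl2, a transcription factor that trophoblast needs, had maternal shares of 98.6%, 99.1%, 100% and 99.8%. Tssc4, Tnfrsf22 and the transporter gene Slc22a18 lay at mean shares of 98.5%, 99.6% and 97.4%. The edge of the domain was less biased: Dhcr7, the last enzyme of cholesterol synthesis, had 86.6%, 80.5%, 75.5% and 88.3%, and the histone chaperone gene Nap1l4 had 56.5%, 56.5%, 53.2% and 53.1% (log2 ratio 0.27, SE 0.07; limma adjusted p = 0.018). The call of Nap1l4 was lost without female 1 (log2 ratio 0.24, adjusted p = 0.0725) or without female 2 (0.24, adjusted p = 0.0718). Kcnq1ot1, the noncoding RNA that silences the domain on the paternal chromosome, was the reverse, with maternal RPKM of 0.0244, 0.565, 0.0169 and 0 and paternal RPKM of 5.33, 4.97, 3.13 and 2.23 over an interval with 280 variants.

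Other maternally expressed members followed the same direction. Igf2r, the receptor that clears IGF2, had 2.32, 2.32, 2.04 and 2.04 RPKM from the maternal allele and 0.243, 0.315, 0.397 and 0.244 RPKM from the paternal allele (log2 ratio 1.29, SE 0.16; limma adjusted p = 8.13e-04). Airn, the noncoding RNA that overlaps Igf2r and silences it, was listed at 0 on the maternal allele in every library, against 5.43, 5.57, 10.5 and 11.8 RPKM on the paternal allele. The noncoding RNAs of the Dlk1-Meg3 domain were nearly all maternal, Meg3 with shares of 100%, 99.2%, 100% and 100%, Rian with 100%, 98.0%, 99.4% and 100%, and Mirg with 100% in each. Dlk1 itself, the paternal growth factor of that domain, was too low to be tested. Grb10, an adaptor that damps insulin signalling, had 29.8, 19.4, 34.0 and 30.4 RPKM from the maternal allele and 2.01, 0.804, 0.760 and 0.933 RPKM from the paternal allele (log2 ratio 3.80, SE 0.17; limma adjusted p = 5.16e-06). H13, a signal peptide peptidase gene, was called maternal without reaching the strong class, at 67.6%, 74.7%, 67.6% and 76.2%.

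**Figure D2:**
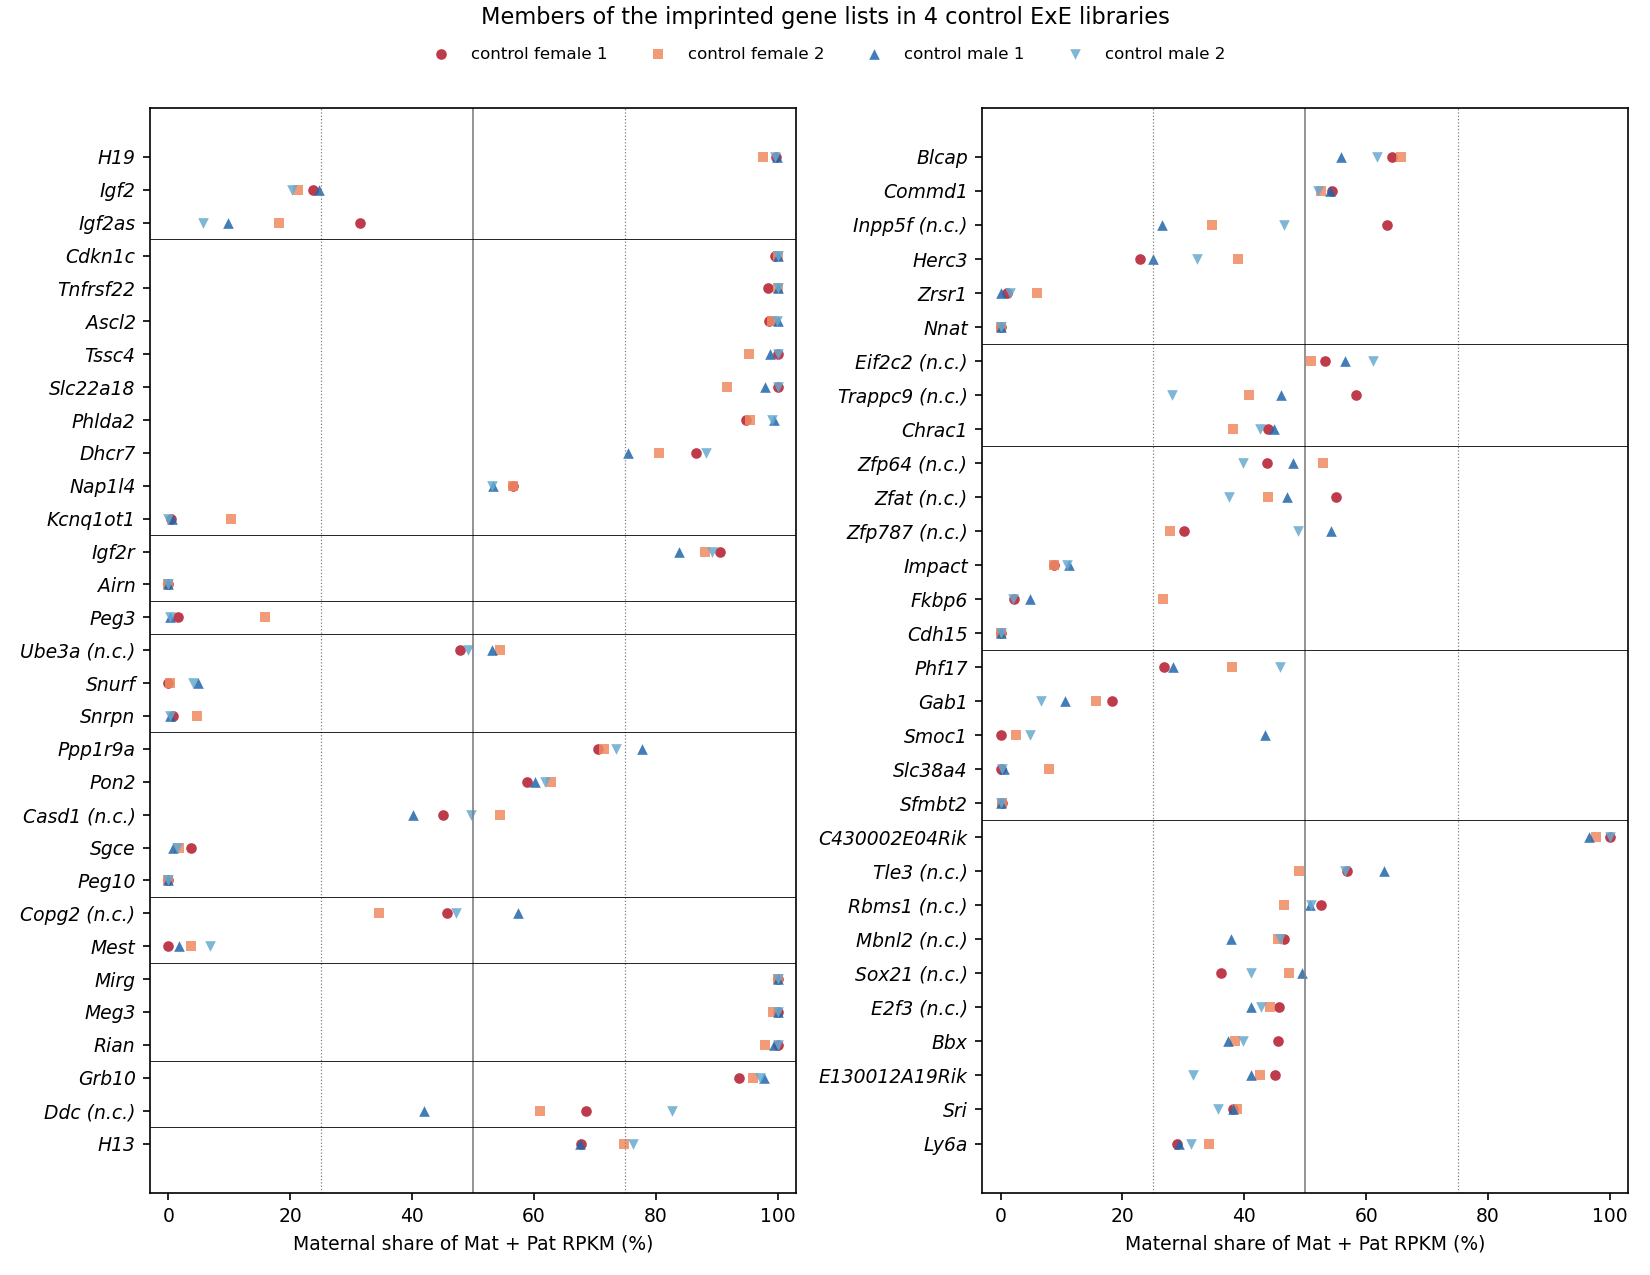
Maternal share (%) of Mat + Pat RPKM of the 61 tested genes of the imprinted lists, 1 symbol per control ExE library, grouped by domain; dotted lines mark 25% and 75%, and n.c. marks the 15 genes not called. Kcnq1 domain genes such as Cdkn1c sit near 100%, Peg10 and Airn at 0%, and several domain edges such as Nap1l4 near 50%.

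Paternally expressed members were as one-sided. Peg10, a retrotransposon-derived gene that the placenta requires, was listed at 0 on the maternal allele in every library and had 34.4, 26.4, 39.9 and 31.4 RPKM on the paternal allele. The count columns held 0 maternal reads of 1964 for Peg10, which allows a maternal share of up to 0.153% by counting error alone. The same limit was 3.45% for Airn (87 reads), 5.45% for Nnat (55 reads) and 1.65% for Cdh15 (182 reads), which are also listed at 0. Its neighbour Sgce, a sarcoglycan gene, had maternal shares of 3.64%, 1.74%, 0.686% and 1.42%, while Ppp1r9a and Pon2 on the far side of the domain were called maternal at means of 73.3% and 60.9%, below the strong class. Peg3, a zinc finger gene, had 1.19, 15.3, 0.221 and 0.179 RPKM from the maternal allele and 76.5, 81.2, 116 and 86.6 RPKM from the paternal allele (log2 ratio -5.07, SE 0.64; limma adjusted p = 7.85e-04), with female 2 far above the other libraries on the maternal allele and a log2 ratio of -5.98 without it. Snrpn, a splicing protein gene, had 1.44, 11.5, 0.837 and 0.754 RPKM from the maternal allele and 210, 236, 253 and 250 RPKM from the paternal allele, with a log2 ratio of -6.24, or -6.90 without female 2. Snurf, of the same domain, was also strongly paternal at a mean maternal share of 2.27%. Its log2 ratio without female 2 was -3.43, smaller than that of Snrpn. How many reads the pair share was not tested, so they are uncertain as separate genes. Mest, a hydrolase-fold protein gene with roles in growth, had 0, 0.744, 0.430 and 2.09 RPKM from the maternal allele and 28.1, 19.4, 25.4 and 28.5 RPKM from the paternal allele (log2 ratio -3.97, SE 0.25; limma adjusted p = 2.78e-05). Zrsr1 and Nnat, which lie inside introns of host genes, were strong, at mean shares of 2.12% for Zrsr1 and 0 for Nnat in each library, and their hosts Commd1 and Blcap were called maternal at 53.3% and 61.9%. The call of Commd1 (log2 ratio 0.19) was lost without female 1 (0.17, limma adjusted p = 0.0552) or male 1 (0.17, adjusted p = 0.0537), and that of Blcap (0.54) without female 1, female 2 or male 2 (0.46 to 0.53, adjusted p = 0.0795 to 0.0997). Fkbp6, a chaperone gene of meiosis, was called paternal at 2.21%, 26.7%, 4.75% and 2.01%, and female 2 alone kept it out of the strong class (log2 ratio -3.54, or -4.25 without female 2). Impact, an inhibitor of the stress kinase GCN2, had 8.73%, 8.75%, 11.2% and 10.9%, and Cdh15, a cadherin gene, was listed at 0 on the maternal allele in every library.

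Not every known imprinted gene was biased. Ube3a, the ubiquitin ligase gene imprinted in neurons, had shares of 47.8%, 54.4%, 53.0% and 49.2% and was not called. Copg2 and Casd1, neighbours of Mest and Peg10, were not called at means of 46.2% ± 9.33 and 47.3% ± 6.10 (SD, n = 4 each). Ddc, paternally expressed in heart, had 68.5%, 61.1%, 42.0% and 82.7%, with no direction called; without male 1 it was called maternal (log2 ratio 0.88, limma adjusted p = 0.0272), the opposite of its list. The zinc finger genes Zfp64, Zfat and Zfp787 were not called at means of 46.1%, 45.8% and 40.2%. Inpp5f was not called either, with 63.4%, 34.7%, 26.5% and 46.4%, from 1 variant. In the Peg13 domain, Trappc9 and Eif2c2 (Argonaute 2) were not called, and Chrac1, listed as maternally expressed from other tissues, was called paternal at 43.8%, 38.1%, 44.8% and 42.5% (log2 ratio -0.45, SE 0.07; limma adjusted p = 0.00196). Herc3, the host of a paternal retrogene and also listed as maternally expressed, was called paternal at a mean of 29.8%. A further 79 listed genes were not tested, and 11 of them had a total of at least 1 RPKM. Gnas, which codes for a G protein subunit, was among these: its mean total was 99.8 RPKM but its allelic sum was 0 to 0.304 RPKM, so its allelic state was not detectable here.

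All 5 tested genes listed as imprinted through maternal H3K27me3 were called paternal. Sfmbt2, a Polycomb-group gene, had 0.465, 0.316, 0.0616 and 0.0666 RPKM from the maternal allele and 194, 165, 172 and 142 RPKM from the paternal allele (log2 ratio -7.11, SE 0.07; limma adjusted p = 5.66e-09). Slc38a4, an amino acid transporter gene of the placenta, had 0, 4.48, 0.252 and 0.136 RPKM from the maternal allele and 62, 52.2, 47.4 and 51.1 RPKM from the paternal allele (log2 ratio -5.01, SE 0.40; limma adjusted p = 8.12e-05). Gab1, an adaptor of growth factor receptors, was less complete, with 30.9, 21.6, 15.3 and 8.61 RPKM from the maternal allele and 138, 116, 129 and 121 RPKM from the paternal allele (log2 ratio -2.79, SE 0.23; limma adjusted p = 1.04e-04). Phf17, a chromatin reader gene, was called paternal outside the strong class at 26.8%, 37.9%, 28.2% and 45.9%. Smoc1, a secreted matrix protein gene, had 0%, 2.46%, 43.3% and 4.78%, and male 1 alone kept it out of the strong class. Of 27 further candidates for this kind of imprint, 10 could be tested, and 4 were called paternal (Bbx, E130012A19Rik, Ly6a and Sri), 1 maternal and 5 in neither direction, with a median maternal share of 43.5%. Over all genes 20% were called paternal and 40.6% in either direction. The call of Bbx (log2 ratio -0.46) was lost with any 1 of the 4 libraries left out (-0.55 to -0.42, limma adjusted p = 0.0506 to 0.119). The 5 not called were Tle3, Rbms1, Mbnl2, Sox21 and E2f3, at means of 56.3%, 50.2%, 43.9%, 43.5% and 43.4%. None of the 4 was strong, the lowest being the surface antigen gene Ly6a at 28.9%, 34.1%, 29.3% and 31.2%. C430002E04Rik, which lies beside Phf17, went the other way, with maternal shares of 100%, 97.7%, 96.5% and 100%.

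The start regions of 4 paternally expressed members are shown because the marks that silence the maternal copy are read at CG-rich DNA near the start. Each window runs from 250 bases before to 50 bases after the RefSeq start (GRCm38.p6, 300 bases, 5′ to 3′ on the gene's strand), and capitals mark CG dinucleotides. Where a gene has several RefSeq windows, that with the most CG was taken. Mest, Nnat and Peg3 are controlled by DNA methylation and Sfmbt2 by H3K27me3; the windows lie at chr6:30737800-30738099 on the plus strand for Mest, chr2:157559828-157560127 on the plus strand for Nnat, chr7:6730370-6730669 on the minus strand for Peg3 and chr2:10372186-10372485 on the plus strand for Sfmbt2.
Mest: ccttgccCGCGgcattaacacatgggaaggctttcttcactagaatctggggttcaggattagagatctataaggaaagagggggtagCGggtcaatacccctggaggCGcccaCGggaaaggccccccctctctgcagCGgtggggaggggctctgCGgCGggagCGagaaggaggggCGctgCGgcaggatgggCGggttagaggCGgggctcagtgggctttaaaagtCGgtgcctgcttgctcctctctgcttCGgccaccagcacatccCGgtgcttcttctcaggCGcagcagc
Nnat: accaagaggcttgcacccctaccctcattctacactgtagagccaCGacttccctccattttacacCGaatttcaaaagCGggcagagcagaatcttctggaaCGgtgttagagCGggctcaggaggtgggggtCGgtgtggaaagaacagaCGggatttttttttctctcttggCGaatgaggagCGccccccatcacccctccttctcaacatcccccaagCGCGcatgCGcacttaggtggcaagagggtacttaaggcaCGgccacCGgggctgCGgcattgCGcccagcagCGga
Peg3: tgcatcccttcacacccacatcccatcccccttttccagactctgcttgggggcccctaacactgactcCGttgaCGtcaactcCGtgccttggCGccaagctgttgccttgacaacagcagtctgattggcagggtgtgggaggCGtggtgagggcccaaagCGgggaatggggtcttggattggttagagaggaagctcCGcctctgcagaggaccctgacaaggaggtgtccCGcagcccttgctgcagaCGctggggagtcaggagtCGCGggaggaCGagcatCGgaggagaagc
Sfmbt2: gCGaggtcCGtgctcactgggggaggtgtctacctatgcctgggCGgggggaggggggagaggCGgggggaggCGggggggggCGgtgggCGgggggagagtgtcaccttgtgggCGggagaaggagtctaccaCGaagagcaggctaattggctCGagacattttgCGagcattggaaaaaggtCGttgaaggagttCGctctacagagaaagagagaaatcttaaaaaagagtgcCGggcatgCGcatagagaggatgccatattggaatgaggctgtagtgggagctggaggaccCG
The windows hold 17 CG in Mest, 17 in Nnat, 13 in Peg3 and 16 in Sfmbt2. That of Snrpn, also silenced on the maternal allele, holds 7. The median is 7 over 32851 RefSeq windows of the same length. It is 8 when each gene symbol is likewise represented by its window with the most CG. TGCCGC, the motif that ZFP57 binds when it is methylated, was searched on both strands: it occurs 2 times in the Mest window and 1 time in the Nnat window, with no match in the Peg3 and Sfmbt2 windows, and 11.6% of all windows hold it. Of the 43 tested members matched to a window, 23 were strong, of which 8 held the motif in any of their windows, and 20 were not strong, of which 6 held it. Over all gene symbols, 13.1% hold the motif in any window. The window with the most CG held a median of 13 for strong members and 21.5 for those not strong.

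The median share of the minor allele of imprinted genes was highest in female 2. Over the 13 strong paternal genes of the DNA methylation lists, the median maternal share was 0.455% in female 1, 3.69% in female 2, 0.330% in male 1 and 0.300% in male 2. Over the 13 strong maternal genes, the median paternal share was 0.418%, 2.47%, 0.552% and 0%. Gene by gene the order was mixed: female 1 was the highest library at 1 of the 13 paternal and 5 of the 13 maternal genes, female 2 at 4 and 5, male 1 at 3 and 2, and male 2 at 1 and 0. The others, Peg10, Airn, Nnat, Cdh15 and Mirg, had the minor allele listed at 0 RPKM in every library. For strong genes on no imprinted list the medians lay closer together: the median minor share of the 167 paternal ones was 8.0%, 7.35%, 7.32% and 6.89%, and of the 138 maternal ones 8.80%, 9.56%, 7.68% and 8.45%. Of the 9 listed epiblast markers, 6 were highest in female 2 as well. Total RPKM of the pluripotency factor gene Pou5f1 was 2.92, 8.0, 3.01 and 0.429, and of the Nodal co-receptor gene Tdgf1 4.81, 14.3, 3.61 and 0.715. Nanog, Fgf5, Nodal and Otx2 were also highest in female 2, at 1.76, 1.26, 1.96 and 1.93 RPKM, against at most 0.692 RPKM in any other library. The other 3 were not: Utf1 had 588, 486, 498 and 442 RPKM, Dnmt3b had 120, 114, 124 and 125 RPKM, and T had 6.16, 7.26, 9.01 and 4.18 RPKM. The whole list, of which 5 had a mean of at least 1 RPKM and none was at 0 throughout, summed to 573 to 723 RPKM per library with female 1 the highest, most of it from Utf1 and Dnmt3b, which ExE also expresses. The part of epiblast RNA in the minor allele shares was not tested.

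**Figure D3:**
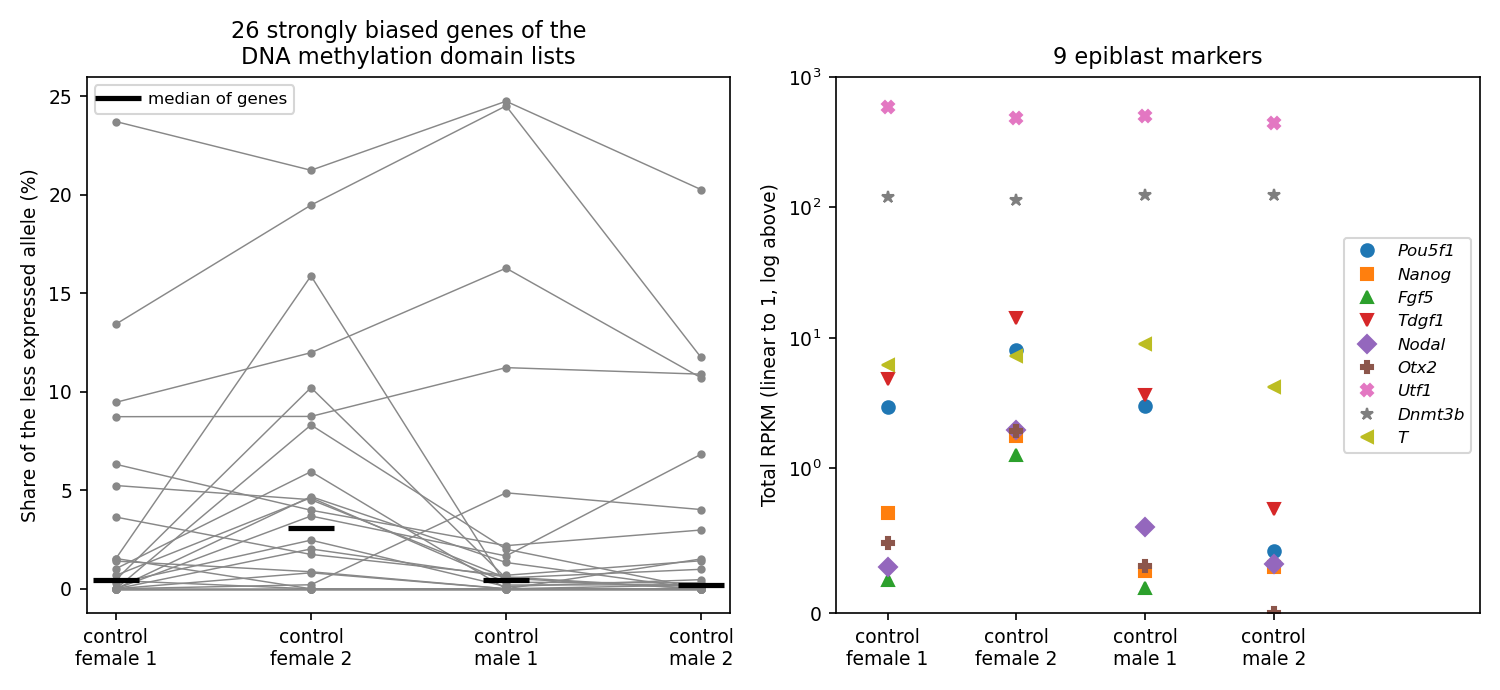
Left, minor allele share (%) of 26 strong genes of the DNA methylation lists in each control ExE library, with lines joining the same gene and bars at the median; right, total RPKM of 9 epiblast markers in the same libraries, on an axis linear up to 1 RPKM and logarithmic above. Median minor shares are highest in female 2 (3.69% for the 13 paternal and 2.47% for the 13 maternal genes), where Pou5f1 is at 8.0 RPKM and Tdgf1 at 14.3 RPKM, while Utf1, Dnmt3b and T are not highest there.

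Most strongly biased genes were on no imprinted list. The 305 such genes, 138 maternal and 167 paternal, were spread over every autosome, with 5 to 35 strong genes per chromosome when listed genes are included. The most paternal ratios were those of Rps29, Atp5g2, Ndufb4, Gm9786, Rps10, Rpl13, H2afz, Rpl3 and Rpl24, with 1 more not reported here, and the most maternal those of Mir682, Rpl35a, Rps18, Ubb, Gng5, Myl6, Uqcrb, Gabarapl2, Bcas2 and Hist1h4d. Rpl13, a ribosomal protein gene, had 7.62, 3.05, 30.1 and 28.2 RPKM from the maternal allele and 5537, 5962, 5855 and 5028 RPKM from the paternal allele (log2 ratio -8.71, SE 0.49; limma adjusted p = 1.43e-05; -8.10 without female 2). Rpl35a, from the same large subunit, had 4278, 5071, 5675 and 4753 RPKM from the maternal allele and 9.79, 9.53, 17.2 and 11.1 RPKM from the paternal allele (log2 ratio 8.61, SE 0.09; limma adjusted p = 5.66e-09). Of these 20 genes, 15 rested on 1 or 2 variants and 9 have a pseudogene named after them in RefSeq. Where a gene has near-identical copies its allelic values are uncertain, and whether reads were shared was not tested.

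Unlisted strong genes differed from listed ones in what they were counted on. Their median number of variants was 4, against 7 for the listed strong genes and 9 for all tested genes, and 94 of the 287 with a known number (32.8%) had 1 or 2, against 3 of 30 listed (10%) and 11.7% of all. A pseudogene of the same name was found in RefSeq for 51 of 302 unlisted strong genes (16.9%), for 0 of 30 listed ones and for 2.82% of all tested genes. Of 53 tested ribosomal protein genes, 18 were called maternal and 33 paternal, 8 and 14 of them strongly, and 39 have such a pseudogene. Over all genes 20.5% were called maternal and 20% paternal, and 1.95% and 2.35% were strong. In the group of highest expression 61.2% were called in either direction and 5.14% were strong. The part of variant number or pseudogenes in the ratios of unlisted strong or ribosomal protein genes was not tested. Of 316 strong genes with at least 20 reads in the count columns, 306 were past the same share in reads, including all 30 listed genes. The 10 that were not included 2510006D16Rik, at 0% of RPKM and 62.3% of reads maternal, the glycolytic enzyme gene Eno1, at 14.7% and 72.4%, and Ndufs5 of respiratory complex I, at 6.13% and 55.1% (log2 RPKM ratio of Ndufs5 -5.10, -3.65 without female 2 and -5.91 without male 1). BC002163 was the largest such gap on the maternal side, at 99.3% of RPKM and 57.6% of reads.

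**Figure D4:**
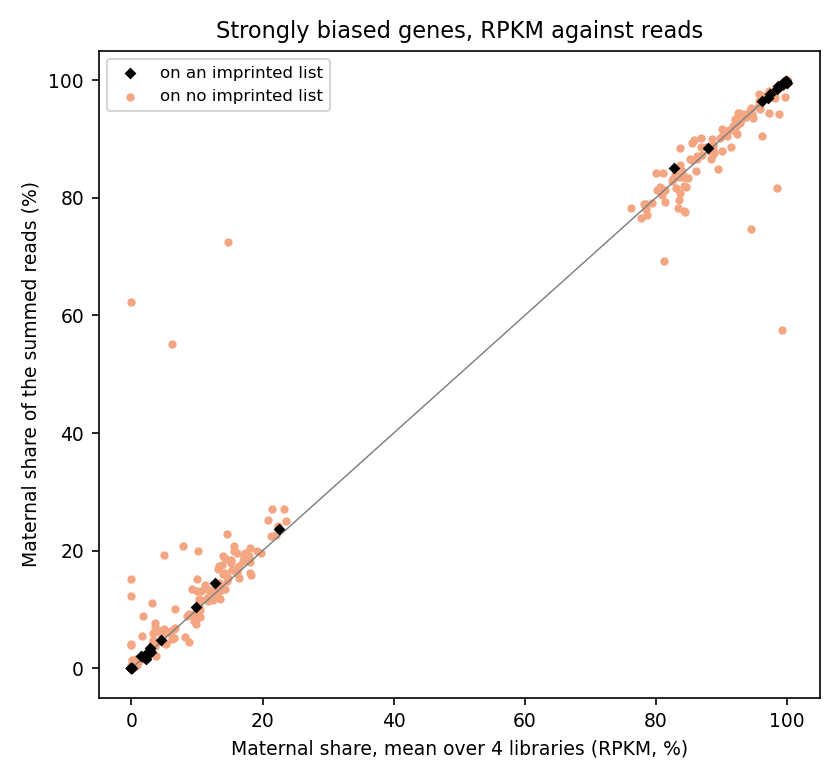
Maternal share (%) of Mat + Pat RPKM, mean of 4 control ExE libraries, against the maternal share (%) of reads summed over the 4 control count columns, for strong genes with at least 20 reads; diamonds mark genes of the imprinted lists, and the diagonal marks equal shares. Of 316 genes 306 are past the threshold by both measures, and all 30 listed imprinted genes are among them.

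The strong class was compared with libraries that had no part in choosing it. Of the 305 unlisted genes, 211 (69.2%) were past the same share in all 9 matKO ExE libraries, as were 15 of the 26 genes of the DNA methylation lists (57.7%) and 0 of the 3 of the H3K27me3 list. For the 2 control morula libraries, from embryos before the first lineages separate, shares were those of reads instead of RPKM. There 211 of the unlisted genes had at least 20 reads, and 146 of these (69.2%) were past the same share in both, while 11 were past the opposite share. For the DNA methylation lists the morula numbers were 7 of 11 (63.6%) with 1 on the opposite side, and all 3 of the H3K27me3 list were past it.

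Genes of DNA methylation, imprint maintenance and Polycomb were called in both directions, beside 20.5% maternal and 20% paternal over all genes. Of 11 tested genes of DNA methylation and imprint maintenance, 7 were called maternal, 3 paternal and 1 in neither direction, with a median maternal share of 57.3%. Zfp57, whose protein protects methylated imprints, had 20.3, 23.9, 23.9 and 15.7 RPKM from the maternal allele and 2.15, 5.16, 3.88 and 1.94 RPKM from the paternal allele (log2 ratio 2.41, SE 0.14; limma adjusted p = 1.78e-05). Uhrf1, which brings the maintenance methyltransferase to replicating DNA, had maternal shares of 77.7%, 80.1%, 81.3% and 74.5%, just short of the strong class in male 2. Cbx5, a heterochromatin protein gene, and Tet1, which oxidises methylcytosine, were called maternal at means of 69.5% and 69.8%. Among Polycomb subunits, 4 of 23 were called maternal, 1 paternal and 18 in neither direction. Kdm2b, which recruits Polycomb to CG islands, was strong at 95.4%, 96.0%, 100% and 92.3%, whereas Ezh2, the H3K27 methyltransferase, had 57.5%, 55.2%, 51.4% and 60% (log2 ratio 0.35, SE 0.09; limma adjusted p = 0.0182). The call of Ezh2 was lost without female 1 (0.32, adjusted p = 0.0659) or male 2 (0.27, adjusted p = 0.0675).

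Marker genes of ExE included both directions. None was strong, which says little for 10 genes, since 1.95% of all genes were strong maternal and 2.35% strong paternal. Of 10 tested ExE markers, 4 were called paternal, 1 maternal and 5 in neither direction, beside 20% paternal, 20.5% maternal and 40.6% in either direction over all genes. Esrrb, an orphan nuclear receptor gene of trophoblast stem cells, had 42.3, 40, 48.9 and 36.3 RPKM from the maternal allele and 125, 116, 129 and 113 RPKM from the paternal allele (log2 ratio -1.51, SE 0.06; limma adjusted p = 2.73e-06). Elf5, an ETS factor gene of the trophoblast lineage, had 52.9%, 35.8%, 40.1% and 36.6%, female 1 lying on the other side of 50% from the rest. The proprotein convertase gene Pcsk6 and the ETS factor gene Ets2 were called paternal at means of 35.7% and 45.1%. The calls of Elf5 (log2 ratio -0.51, limma adjusted p = 0.0387) and Ets2 (-0.28, adjusted p = 0.0446) were lost in 3 of the 4 fits that leave out a library: that of Elf5 without female 2, male 1 or male 2 (-0.49 to -0.40, adjusted p = 0.114 to 0.140), and that of Ets2 without female 1, female 2 or male 2 (-0.29 to -0.19, adjusted p = 0.0969 to 0.133).

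Other listed families held both directions, beside 20.5% maternal, 20% paternal and 40.6% called in either direction over all genes. Of 6 tested genes of major histocompatibility class I presentation, 3 were called maternal and 1 paternal: the class I chain genes H2-K1 and H2-D1 had mean maternal shares of 72.9% and 56.5%, and the peptide transporter genes Tap1 and Tap2 had 82.7% and 33.6%. The call of Tap2 (log2 ratio -0.69) was lost without female 1, male 1 or male 2 (-0.72 to -0.58, limma adjusted p = 0.0754 to 0.117). Of 7 interferon-induced genes, 2 were called maternal and 1 paternal, Ifitm1, a restriction factor gene, at 12.4%, 14%, 11.6% and 10.3% beside its neighbour Ifitm2 at 63.1%, 61.3%, 63.1% and 65.6%. Glutathione and detoxification genes had 5 maternal and 7 paternal calls of 19, with the transferases Gstp2 and Gstz1 strongly paternal at means of 4.66% and 9.80%. Zinc finger genes named Zfp had 36 maternal and 24 paternal calls of 184, and all 6 strong ones were maternal, among them Zfp72, Zfp951, Zfp947 and Zfp605 at means of 93.7%, 92.3%, 98.9% and 97.3%. Solute carriers had 23 maternal and 28 paternal calls of 132, and 2 maternal and 4 paternal ones were strong. Slc30a2, a zinc transporter gene, had 11.9%, 17.9%, 13.4% and 13.7%. Slc15a2, a peptide transporter gene, had 100% in each library but at a low level, with a log2 ratio of 1.85 to 2.05 when a library was left out. Mitochondrial complex I had 7 maternal and 11 paternal calls of 30, with Ndufa11 at 27.7%, 28.2%, 28.1% and 28.8%.

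Of 9 tested housekeeping genes, often used as references for expression, 6 were called maternal, 1 paternal and 2 in neither direction, beside 40.6% called over all genes and 61.2% in the group of highest expression. Actb, cytoplasmic actin, had 634, 903, 784 and 715 RPKM from the maternal allele and 1937, 1788, 1680 and 1581 RPKM from the paternal allele. Eef1a1, a translation elongation factor gene, had maternal shares of 94.1%, 94.3%, 93.1% and 93.5% from 1 variant, and Rplp0 had a mean of 94.4% from 3. The genes of highest RPKM also moved the total. Summed maternal RPKM was 794681 and summed paternal RPKM 878524 on average. The difference was -83843 ± 11534 (SD, n = 4), with a maternal share of 47.5% ± 0.226. The exact two-sided sign-flip permutation test gave p = 0.13, the smallest that 4 libraries allow, and without the 50 most expressed genes the share was 49.7%. Reads went the other way, at 51.8% to 52.1% maternal per count column over all chromosomes. RPKM also divides by the length of the counted interval, a median of 371 bases, so the sum does not show which parental genome gave more RNA.

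Genes near imprinted genes were strong at a rate close to that of other genes. Of 267 unlisted tested genes within 1 Mb of a listed gene, 9 were strong (3.37%), against 305 of all 7723 unlisted genes (3.95%). Of the 9, D7Ertd715e lay nearest, 12.0 kb from Snurf in the Snrpn domain, with maternal shares of 0%, 11%, 1.22% and 2.53% and, like Snrpn, its highest share in female 2. Mrpl23, a mitochondrial ribosomal protein gene 42.3 kb from H19, had a mean share of 1.54% ± 0.293 (SD, n = 4) from 2 variants and 5.51% of reads. The others were Rpl13, Csnk2a1, 4930405A21Rik, T, Hsp90aa1, Rbp4 and Morf4l1, at 181.4 to 841.3 kb. T, the mesoderm transcription factor gene, had 85.2%, 84.4%, 80.8% and 97.9%, and Hsp90aa1, a chaperone gene, had 18%, 18.3%, 16.8% and 18.1%.

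A stretch of chromosome 18 was biased in 3 control libraries and balanced in female 1. Tcof1, a nucleolar factor gene, had 43.0, 0, 0.217 and 0.117 RPKM from the maternal allele and 47.2, 86.4, 93.9 and 87.4 RPKM from the paternal allele. Rps14, a ribosomal protein gene, had maternal shares of 41.0%, 0.0550%, 0.145% and 0.0449%, and 2010002N04Rik had 53.3%, 0.477%, 0% and 0.615%. Rbm22, a splicing factor gene, and Dctn4, a dynactin subunit gene, shared the pattern less fully, at 47.5%, 10.2%, 9.72% and 7.24% for Rbm22 and 37.4%, 15.5%, 9.83% and 13.7% for Dctn4. All 5 were called paternal by limma and stayed outside the strong class through female 1. Without female 1 the log2 ratio was -6.35 for Tcof1, against -4.79 with it, and -5.33 for 2010002N04Rik, against -3.95 with it. The call of 2010002N04Rik was lost without any 1 of the other 3 (-3.54 to -3.47, limma adjusted p = 0.0507 to 0.0558). Their neighbours Isoc1, at 32.2% to 37.1%, and Hmgxb3, at 44.3% to 50.1%, did not separate female 1 from the others. Slc12a2, a chloride transporter gene, had 60.8% in female 1 against 23.6% to 29.3% in the other controls, and Pcyox1l had 62.6% against 47.7% to 49.2%, and neither was called. Cdx1, a homeobox gene between Tcof1 and Hmgxb3, had 29.8%, 0%, 7.94% and 19.2% and was called paternal. Among the 9 matKO libraries, male 4 alone was low at Tcof1 and Rps14, with 0.133% for Tcof1 and 0.086% for Rps14, against 45.8% to 52.4% for Tcof1 in the other 8. Male 4 was also the lowest at Slc12a2, with 29.3% against 48.8% to 69.7%, and at Pcyox1l, with 42.6%. A smaller stretch on chromosome 2 set female 1 apart the other way: Mapkap1 had 28.5% in female 1 against 55.3% to 58.5% in the other controls, Rabepk 17.7% against 47.8% to 54.4%, and Psmd5 37.2% against 55.7% to 60%. Fbxw2, between Rabepk and Psmd5, had 59.4% in female 1 and did not share the pattern.

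**Figure D5:**
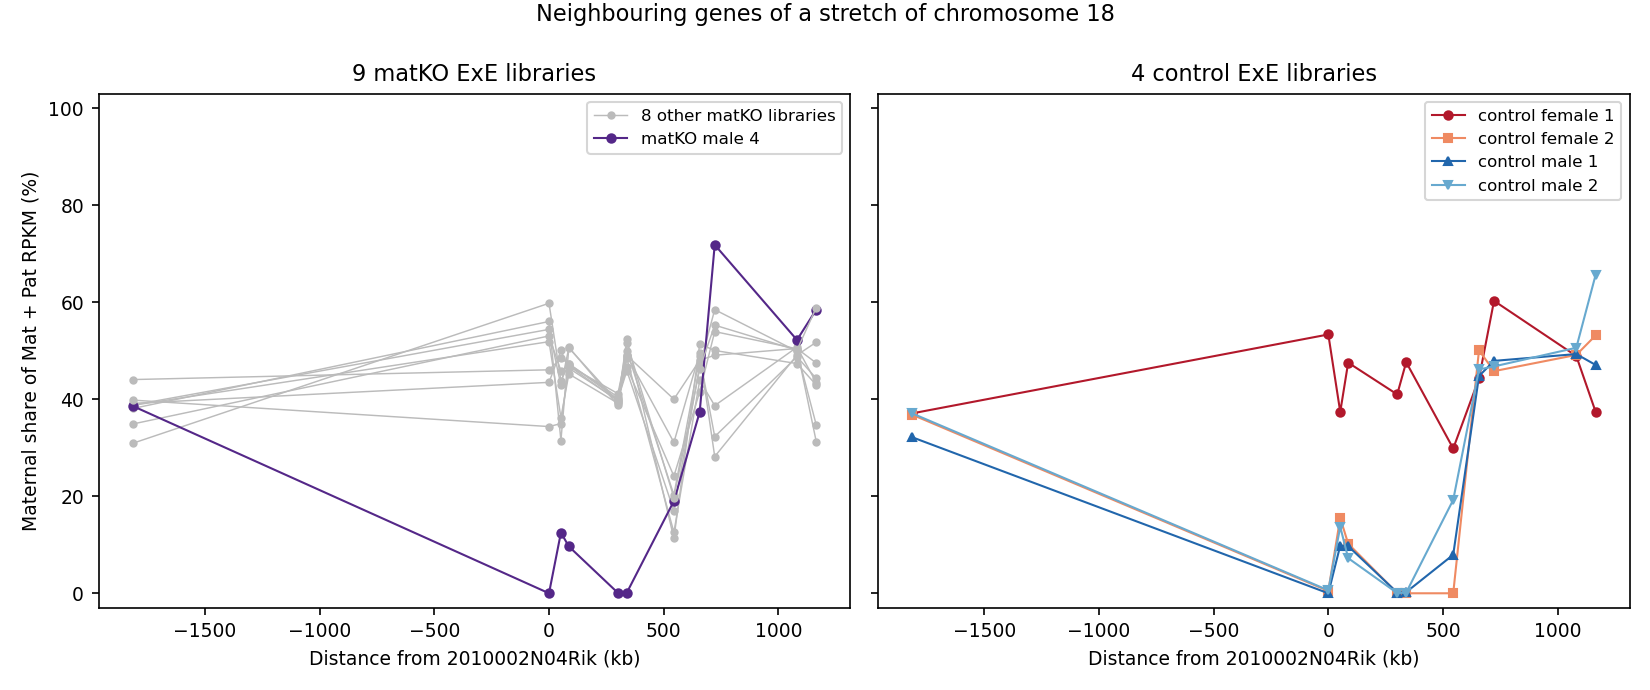
Maternal share (%) of Mat + Pat RPKM along chromosome 18, by distance (kb) from the start of 2010002N04Rik, in 9 matKO ExE libraries (left) and 4 control ExE libraries (right), with points for genes and lines for libraries. At Tcof1 male 4 lies at 0.133% among the matKO libraries, and female 1 lies at 47.6% while the other controls lie between 0% and 0.231%.

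Besides Tcof1 and 2010002N04Rik, the widest ranges over the control libraries included small nucleolar RNA genes, which lie in introns of host genes, whose reads cannot be told apart from theirs. Snora41 and Snord15b, with 1 variant each, ran from 0% to 100% and were not called, although Snora41 was called paternal without male 2 (log2 ratio -5.09, limma adjusted p = 0.0496). Snora65 had 48.9% in female 1 and 100% in the others, with a log2 ratio of 5.84, or 7.81 without female 1 and 5.03 without male 2. Depdc7 had 61.9%, 31.5%, 20.1% and 15% and was not called, but was called paternal without female 1 (log2 ratio -1.69, limma adjusted p = 0.00294).

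In the female minus male contrast, 3 of 7784 genes passed limma's adjusted p threshold (0.0385%), each with an adjusted p of 0.0451, and 357 had an unadjusted p under 0.05. The number moved with 1 library left out: 16 genes passed without female 1, 16 without female 2, 6 without male 1 and 11 without male 2, of which 2, 1, 2 and 2 were among the 3. Rpl23a, a ribosomal protein gene, had maternal shares of 0.401% and 0.380% in females and 1.65% and 1.19% in males (log2 difference -1.76). Rpl37, from the same subunit, had 98.4% and 98.3% in females and 96.6% and 96.8% in males (1.03). With a pseudocount of 0.1 RPKM no gene passed, while 335 had an unadjusted p under 0.05. In the matKO libraries, which had no part in this contrast, Rpl23a was 0.486%, 0.240%, 0.224% and 0.515% in females and 0.276%, 0.268%, 1.52%, 1.02% and 0.209% in males, so the sexes overlapped.

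The matKO minus control contrast showed which allelic ratios differed between the ExE of the groups. Whether loss of Eed caused each difference was not tested. With limma over 13 libraries, each genotype and sex was its own group and the sexes were weighted equally. In this fit 9 of 7784 genes passed (0.116%), and 562 had an unadjusted p under 0.05. Without female 2 the count was 16, with 8 of the 9 among them, and without male 2 it was 6. The H3K27me3 list gave 4 of them, all higher on the maternal side in matKO. Gab1 had a mean maternal share of 51.9% ± 1.72 in matKO (n = 9) and 12.8% ± 5.21 in control libraries (n = 4), with a log2 difference of 2.90 (limma adjusted p = 7.09e-09). Phf17 had 54.4% in matKO and 34.7% in control libraries, with 52.3% to 58.4% in matKO against 26.8% to 45.9% in control. Slc38a4 had 13.8% to 45.3% in matKO and 0% to 7.89% in control libraries, and Sfmbt2 had 1.62% to 54.6% in matKO and 0.0359% to 0.239% in control libraries, with the lowest matKO values of Sfmbt2 in males 1 and 2. Eed, the gene deleted in the mothers, had 13.7% ± 2.27 in matKO and 45.8% ± 1.68 in control libraries (SD; log2 difference -2.34, limma adjusted p = 4.82e-07); whether its counted interval lies in the deleted part was not tested. Thg1l, a transfer RNA modifying enzyme gene, had 65.8% to 72.3% in matKO and 13.4% to 25.8% in control libraries. Fam36a had 36.1% to 49.5% in matKO and 35.6%, 9.78%, 1.36% and 0% in control libraries, with female 1 close to the matKO range. 2410003L11Rik and Psmg2 completed the 9, at means of 73.7% and 40.9% in matKO and 50% and 30.8% in control libraries. At both genes the groups overlapped: 2410003L11Rik had 61.1% to 80.5% in matKO and 26.8% to 71.6% in control libraries. Psmg2 had 31.8% to 43.8% in matKO and 29.6% to 32.2% in control libraries.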

How the data were processed

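RNA from E6.5 ExE was amplified with a low-input SMARTer kit and a Nextera XT library, which mark no strand, per the labels' protocols. The authors deposited allelic RPKM values (maternal, paternal and total) per gene and library, and read counts per allele at variants; the submitters' processing notes name mm9, HISAT2 2.1.0 and Cufflinks 2.2.1, and the assignment of reads to an allele is not given in the sources used here. Median log2 RPKM ratios were 0.06 to 0.08 below those of the counts, in the direction that scaling each allele to its own total gives. The RPKM table gives no depth; the control count columns held 4875078 to 7186868 reads. By correlation of values, only 1 of the 4 control count columns matched the library it names, so counts were used summed over the 4 columns, or in fits that do not name libraries. A further 31 per-sample columns were not used. Genes needed 2 RPKM (maternal plus paternal) in all 4 control libraries. Log2((maternal + 1)/(paternal + 1)) was fitted with limma 3.58.1 (R 4.3.3, trend on level), two-sided, with Benjamini-Hochberg adjustment; both alleles come from the same library, which pairs them. Fold changes are on this log2(RPKM + 1) scale and understate low genes. edgeR 4.0.16 and DESeq2 1.42.0 on the counts, other pseudocounts, filters, scalings and left-out libraries were alternatives. The fit was tested on simulated data. Named genes were all tested members of the imprinted lists, the 10 largest ratios each way among unlisted strong genes of at least 20 RPKM, up to 4 called members of each other list, the 6 widest ranges, the genes of both contrasts and unlisted strong genes within 1 Mb of listed ones; genes whose RPKM and reads disagree, and those of the chromosome 18 and 2 stretches, were chosen after their values were seen. Results of 2 genes, 1 of them in the sex contrast, are not reported here. Members and lists were chosen with earlier results of these data known. Overlapping genes, antisense genes and genes with near-identical copies are uncertain, since the kit marks no strand and the counting of shared reads is not given.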

Additional observations from a re-analysis of the deposited data

Results flagged for a closer look

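Among 137 named genes, 22 had a control library whose maternal share stood apart from the other 3 (16.1%), and 7 of the 22 spanned over 10 percentage points. Chance alone marks about 1 in 20 groups, but the 2 rates cannot be compared: some genes were named for their wide range over these libraries, and at 8 of the 22 the other 3 libraries all sat at 0% or 100%. Female 2 stood apart at Fkbp6 (26.7%), H19 (97.5%), Kcnq1ot1 (10.2%), Meg3 (99.2%), Peg3 (15.9%), Slc38a4 (7.89%) and Snrpn (4.62%), each with more of the minor allele than the other libraries. Fkbp6, a gene of meiosis with paternal expression, had 2.21%, 4.75% and 2.01% elsewhere, and female 2 alone kept it out of the strong class. Female 1 stood apart at Cdkn1c (99.6%), Tnfrsf22 (98.5%), Bcas2 (99.5%), Hist1h4d (98.2%), Zfp947 (95.5%), 2010002N04Rik (53.3%), Snora65 (48.9%) and Tcof1 (47.6%). Male 1 stood apart at Mbnl2 (37.8%), Smoc1 (43.3%), Atp5g2 (0.22%), Rplp0 (92.4%) and Csnk2a1 (96.5%), and male 2 at Gabarapl2 (97.7%) and H2-K1 (70.1%). The log2 ratio differed between females and males, as female minus male, by -1.76 at Rpl23a and 1.03 at Rpl37, with limma adjusted p = 0.0451 for each. It differed between matKO and control libraries, as matKO minus control, by 2.90 at Gab1, -2.34 at Eed, 3.16 at Thg1l, 3.38 at Fam36a, 3.69 at Slc38a4, 1.49 at 2410003L11Rik, 6.29 at Sfmbt2, 1.16 at Phf17 and 0.64 at Psmg2, with limma adjusted p between 7.09e-09 and 0.0306.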

How the results depend on the processing

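The 1599 maternal and 1559 paternal calls kept within 1.5 times of their number under every alternative run except DESeq2 on the counts, which made 990 paternal and 1565 maternal calls; the RPKM and count tables differ in scaling. Without the pairing of alleles within a library (no replicate block), 1286 maternal and 1183 paternal calls were made. Leaving out each library in turn gave 1290 to 1323 maternal and 1232 to 1277 paternal calls. Strong maternal genes numbered 64 at a share of 90% and 238 with no filter on level; strong paternal genes numbered 80 at 90%, 120 at a minimum of 10 RPKM and 115 with more than 2 variants, the last chosen after seeing the data. Leaving out each library gave 170 to 177 strong maternal and 201 to 204 strong paternal genes. These included all 152 and 183, but the share limit can only be easier to meet with a library fewer. The sex contrast gave 0 genes with a pseudocount of 0.1 RPKM (335 at an unadjusted p under 0.05 with limma) and 6 to 16 when a library was left out, of which 1 or 2 were among the 3. The matKO contrast gave 6 to 16 genes when a control library was left out, with 16 without female 2 and 6 without male 2. The summed maternal share of 47.5% was 49.9% as the median over genes and 49.7% without the 50 most expressed genes. Of 137 named genes under 15 alternatives, called genes gave 1694 values on the same side, 54 values of 14 genes in the same direction but no longer past the threshold and 3 of 1 gene reversed. That gene was Ndufs5, whose log2 ratio was 0.31 with edgeR, 0.23 with edgeR and TMM and 0.31 with DESeq2, against -5.10; the cause was not tested. Genes not called gave 249 values on the same side, 6 values of 5 genes (Ddc, Depdc7, E2f3, Snora41 and Tle3) newly past the threshold and 6 of 4 genes reversed. Among them, the log2 ratio changed sign with a library left out: Copg2 ran from -0.31 to 0.0067 (without female 2), Rbms1 from -0.035 (without female 1; -0.0024 without male 2) to 0.081, Snora41 from -5.09 to 0.0090 (without female 1) and Snord15b from -2.15 to 2.16 (without male 2). Rbms1 was also -0.0054 with edgeR and TMM. Depth limits genes at few reads: 902 tested genes rest on 1 or 2 variants, and the RPKM table gives no counting error.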
